A study of Homo sapiens with 4 samples.

Results

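The genes described here are 46 genes that build multivesicular bodies and exosomes: 16 tetraspanins, 22 subunits of the ESCRT complexes and VPS4, and 8 further genes (ALIX, syntenin, neutral sphingomyelinases, flotillins and annexins). They were listed by name for their role in these pathways, and were read from the transcript clusters that carry exactly 1 gene symbol in the platform annotation, with the brightest cluster standing for a gene that has several. Of the 46 genes, 45 were found this way among 22085 genes. The ESCRT-III subunit CHMP3 has no cluster of its own, because its cluster also carries the readthrough gene RNF103-CHMP3, and it is not described further.

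TC-71, an established Ewing sarcoma (EWS) cell line, was profiled on 4 Human Transcriptome Array 2.0 arrays, 2 with RNA of untreated cells (TC-71, replicates A and B) and 2 with RNA of the same line after exposure for 24 h to EXOs of CD99-silenced TC-71 donor cells (replicates C and D, labelled exoTCsiCD99 and named TC-71 + TC-CD99neg EXOs here), at 10 µg of EXOs per 5000 cells and without serum. CD99 was silenced in the donors only, and all 4 arrays hold recipient cells with their own CD99. Untreated cells received no EXOs of any kind, and whether they were also kept without serum is not given in the sources used here, so the arrival of EXOs, their CD99neg origin and a difference of serum cannot be told apart. RNA carried in by EXOs and RNA made by the recipient cells cannot be told apart either, nor can a smaller share of cells expressing a gene and less of its RNA per cell.

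Exosomes form when the membrane of an endosome buds inward, and they leave the cell when the resulting multivesicular body fuses with the plasma membrane. ESCRT-0 gathers ubiquitinated cargo, ESCRT-I and ESCRT-II bend the membrane, ESCRT-III filaments cut the neck of the bud, and the ATPase VPS4 takes these filaments apart. Tetraspanins order membrane proteins into microdomains and mark exosomes, while syntenin with ALIX, ceramide from neutral sphingomyelinases, and flotillins serve further routes of vesicle formation.

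The values are log2 signals, and the median over all clusters lay between 5.38 and 5.45 on the 4 arrays. Arrays of 1 group correlated with each other at 0.9971 or more, and arrays of different groups at 0.9895 or less. All 7 EWS markers were found above the array median, and 3 were higher and 2 lower past the adjusted p in exposed cells. That is 42.9% and 28.6% of only 7 genes, beside 7.66% and 9.64% of genes at or above the median signal. NR0B1, a target of the EWS fusion protein, was called lower (-0.62, limma adjusted p = 0.0137), STEAP1 fell by 0.56 (0.0141), BCL11B and NKX2-2 rose by 0.42 and 0.23 (0.0129 and 0.0374), and CCND1 and FLI1 changed by -0.17 and -0.08 (0.11 and 0.337). With 1 array left out, NR0B1 and STEAP1 were lost without C (0.052 and 0.0565), BCL11B without A, C or D (up to 0.0634) and NKX2-2 without any 1 array (0.11 to 0.203). CD99 itself was higher, at 10.24 and 10.25 against 9.93 and 9.98 (log2 change 0.29, limma adjusted p = 0.0231), a rise lost with any 1 array left out. It has 2 clusters, and the brighter is given. In the paper, qPCR and flow cytometry in TC-71 showed no significant difference of CD99 after CD99neg EXOs. The rise on the arrays thus differs from those measurements, and the cause was not tested. Of 9 measured markers of blood, endothelium, epithelium, muscle and cartilage, 4 lay below the array median. In limma 0 passed an adjusted p of 0.05 (0 also at an unadjusted p of 0.05), with changes between -0.06 and 0.14. Lying above the array median does not mark a cell type: COL2A1 and MYOG averaged 7.19 and 6.62 in untreated cells, beside 6.65 for FLI1. Each change below is the exposed minus the untreated group mean on the log2 scale, tested with limma over all 67539 clusters with Benjamini-Hochberg adjustment. To be called, a gene had to pass both a 1.5-fold difference and an adjusted p of 0.05.

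Among the 45 genes, 1 gene was called. HGS, the ESCRT-0 subunit that binds ubiquitinated cargo and brings the complex to the endosome, was higher in exposed cells, and 0 genes were called lower. This is 2.22% of the genes called higher, where the background was 1.13% of all genes and 1.51% of genes at or above the median signal; 0.964% and 1.35% of these were called lower. Without the fold limit, 8 of 45 passed the adjusted p. HGS, the ESCRT-I subunit VPS37B and the tetraspanins TSPAN3 and TSPAN14 rose, and the ESCRT-III subunits CHMP4B and CHMP1A, the ESCRT-0 subunit STAM2 and the flotillin FLOT1 fell. Each direction held 8.89% of the genes, beside a background of 5.84% higher and 6.98% lower over all genes, or 7.66% and 9.64% over genes at or above the median signal. Since only 3 of the 45 genes lie below the array median, against 28.8% of all genes, the brighter background is the closer one, and the shares past the test lay near it. An unadjusted p of at most 0.05 was reached by 10 genes that were higher (22.2%) and 14 that were lower (31.1%), beside 16.7% and 21.1% of genes at or above the median signal.

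The promoters of HGS and of the 3 other genes with the largest changes are shown as the sequence around the start of the genes on which the results turn, credited to RefSeq (GRCh38.p14), from 250 bases before to 50 bases after the first listed start, written 5′ to 3′ on the strand of the gene. HGS lies at chr17:81683761-81684060 (plus strand), STAM2 at chr2:152175714-152176013 (minus strand), CHMP4B at chr20:33811098-33811397 (plus strand) and VPS37B at chr12:122896075-122896374 (minus strand). Capitals mark matches, on either strand, to 1 of 7 short motifs. These were the AP-1 site as TGANTCA, the CRE as TGACGTCA, the EGR site as GCGNGGGCG, the GC box as GGGCGG, the E-box as CACGTG, the ETS core as CCGGAAG and the TATA box as TATAAA. AP-1 was searched because the study measured AP-1 activity in these cells, and ETS because the EWS fusion protein EWSR1-FLI1 binds DNA through an ETS domain.
HGS: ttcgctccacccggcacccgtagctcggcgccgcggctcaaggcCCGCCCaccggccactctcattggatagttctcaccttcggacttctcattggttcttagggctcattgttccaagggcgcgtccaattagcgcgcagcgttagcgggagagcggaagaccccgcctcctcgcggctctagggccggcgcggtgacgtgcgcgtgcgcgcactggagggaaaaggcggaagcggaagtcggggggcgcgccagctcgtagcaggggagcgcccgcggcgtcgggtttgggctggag
STAM2: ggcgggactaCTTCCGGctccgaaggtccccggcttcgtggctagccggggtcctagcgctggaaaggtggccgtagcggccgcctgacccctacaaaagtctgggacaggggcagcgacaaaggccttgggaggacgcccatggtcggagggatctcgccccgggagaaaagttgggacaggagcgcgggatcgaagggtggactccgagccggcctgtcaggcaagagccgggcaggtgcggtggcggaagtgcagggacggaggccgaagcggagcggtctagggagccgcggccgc
CHMP4B: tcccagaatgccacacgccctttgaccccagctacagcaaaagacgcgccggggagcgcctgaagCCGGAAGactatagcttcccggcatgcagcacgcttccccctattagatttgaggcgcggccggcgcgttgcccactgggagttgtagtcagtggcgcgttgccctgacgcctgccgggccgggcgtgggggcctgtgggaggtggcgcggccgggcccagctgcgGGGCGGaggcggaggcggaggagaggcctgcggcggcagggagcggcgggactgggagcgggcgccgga
VPS37B: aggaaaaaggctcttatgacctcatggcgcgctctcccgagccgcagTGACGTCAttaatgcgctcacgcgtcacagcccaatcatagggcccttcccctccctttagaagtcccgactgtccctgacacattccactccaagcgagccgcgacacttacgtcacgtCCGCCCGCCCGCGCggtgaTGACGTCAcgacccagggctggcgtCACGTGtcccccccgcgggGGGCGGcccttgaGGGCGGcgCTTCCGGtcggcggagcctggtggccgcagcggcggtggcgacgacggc
The HGS window holds 1 GC box match and no other motif, STAM2 holds 1 ETS match, and CHMP4B holds 1 GC box and 1 ETS match. VPS37B holds 2 CRE matches, 4 GC boxes, 1 EGR match that overlaps GC boxes, 1 E-box and 1 ETS match. A match describes letters and not a bound site.

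A RefSeq promoter of this kind was found for 33 of the 46 genes. Their median GC content was 68.3%, beside 58.3% over 27305 genes, from 42.3% in TSPAN8 to 85.7% in TSPAN14. The ETS letters were present in 12 of the 33, among them STAM2, CHMP4B, CHMP1A and VPS37B of the genes past the test, and CD63, TSG101 and PDCD6IP of the others. They occur in 10.7% of all promoters and in 16.1% of those with at least 60% GC, and in 9 of the 25 promoters of these genes with that GC content. The AP-1 letters were found in 3 (CD63, FLOT2 and ANXA2), none of which passed the test in the arrays, against 7.76% of all promoters and 3.35% of the GC-rich ones. The CRE letters were found in VPS37B and CHMP1B, against 1.98% and 3.03%, and the GC box in 23 of 33, against 44.6% of all promoters and 78.3% of the GC-rich ones. EGR letters were in 7 of 33 (9.28% of all promoters, 19.1% of the GC-rich ones), all 7 of them GC-rich. E-box letters were in 4 (7.43% and 10.2%) and TATA letters in ANXA2 alone (12% and 3.08%). Even beside GC-rich promoters, the genes are too few to read these shares, that of ETS included, as particular to them.

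HGS had a log2 signal of 9.20 and 9.20 in untreated TC-71 and of 9.88 and 9.82 in TC-71 + TC-CD99neg EXOs. Both exposed arrays lay above both untreated arrays, and the distance between the groups was far larger than the distance between replicates. The rise was 0.65 (SE 0.04, 95% interval 0.54 to 0.76), a 1.57-fold higher signal, with a limma adjusted p of 0.00584. It ranked 188th by size among the 250 genes called higher. HGS stayed called with each of the 4 arrays left out in turn, with changes of 0.62 to 0.68 and adjusted p of 0.0203 to 0.0393, but not without moderation of the variance (adjusted p = 0.197; over all alternatives from 4.74e-09 to 0.197). In RefSeq the microRNA gene MIR6786 overlaps HGS, and whether the array cluster separates them was not tested.

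**Figure D1:**
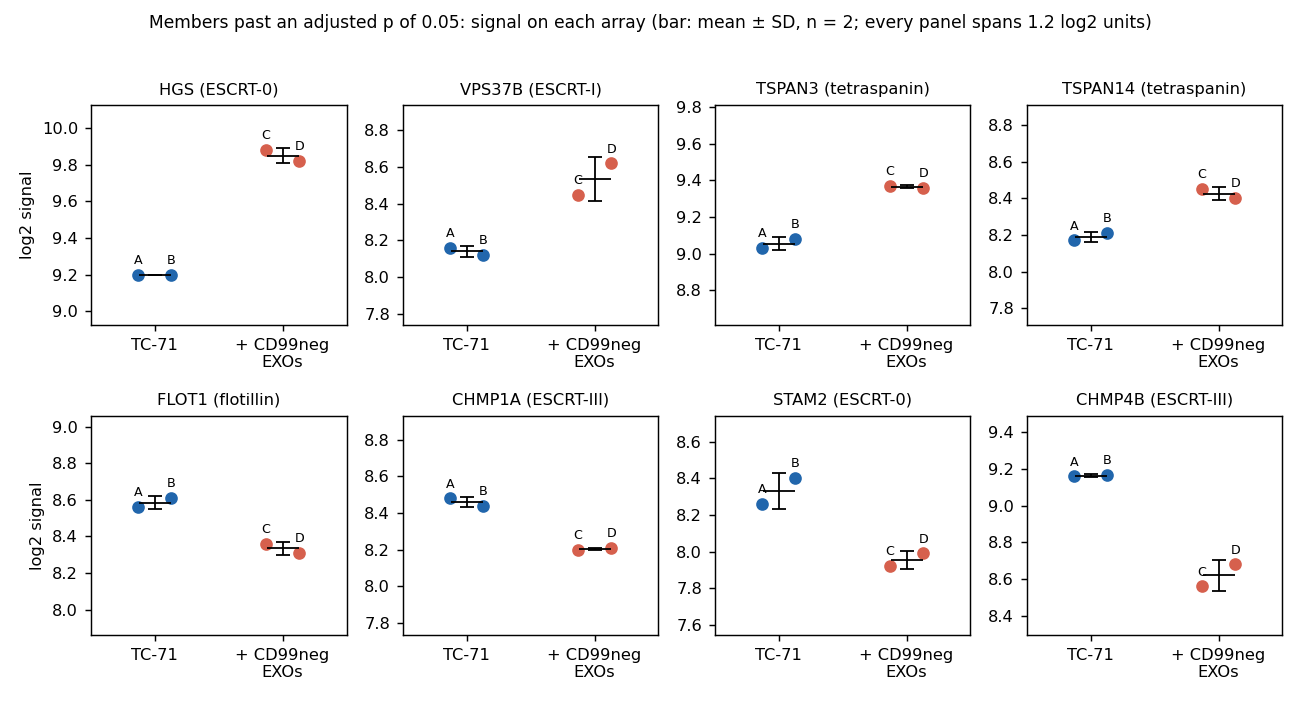
Log2 signal (vertical axis, each panel spanning 1.2 log2 units) of the 8 genes past an adjusted p of 0.05 on the 2 untreated arrays (A, B) and the 2 arrays after CD99neg EXOs (C, D); points are arrays, bars the mean ± SD. The groups do not overlap in any panel, and HGS has the widest gap, from 9.20 to 9.82 between the nearest arrays.

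HGS forms ESCRT-0 with STAM or STAM2, its ubiquitin-binding partners, and neither partner was higher in exposed cells. STAM2 was at 8.26 and 8.40 in untreated and at 7.92 and 7.99 in exposed cells. It fell by 0.38 (95% interval -0.54 to -0.22, limma adjusted p = 0.0322). STAM was at 8.72 and 8.84 in untreated and at 8.55 and 8.49 in exposed cells, a change of -0.26 with an interval of -0.41 to -0.11 that missed the threshold (limma adjusted p = 0.0663). Both genes were thus lower on each exposed array than on each untreated array, opposite in sign to HGS. The fall of STAM2 was lost with any 1 of the 4 arrays left out (adjusted p = 0.0508 to 0.13).

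ESCRT-I joins TSG101 and VPS28 with 1 of several VPS37 proteins, and 1 of its 5 measured genes passed the test. That is 20% higher, beside 7.66% of genes at or above the median signal. VPS37B was at 8.16 and 8.12 in untreated cells and at 8.45 and 8.62 in exposed cells. The exposed arrays were both higher, with an SD of 0.12 between them, the widest replicate spread of the 8 genes that passed. The rise was 0.39 (95% interval 0.21 to 0.58, limma adjusted p = 0.0379), and it missed the threshold without array A, B or D (adjusted p = 0.124, 0.15 and 0.0833). VPS37C changed by 0.23 with an adjusted p of 0.0506, at 6.95 and 6.87 against 7.13 and 7.14. TSG101, which recognizes short late-domain motifs in cargo and viral proteins, was at 7.68 and 7.77 against 7.37 and 7.53, a change of -0.28 (95% interval -0.47 to -0.09, limma adjusted p = 0.0995). VPS28 and VPS37A changed by 0.02 and 0.01. Of the 5 changes 4 were positive and 1 negative, and only that of VPS37B passed the test.

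ESCRT-II links ESCRT-I to ESCRT-III, and none of its 3 genes passed the test, with 2 at an unadjusted p of at most 0.05. These were lower (66.7%, beside 21.1% of genes at or above the median signal), and 3 genes are too few to read that share. VPS25 changed by -0.23 (limma adjusted p = 0.128), SNF8 by -0.15 (0.159) and VPS36 by -0.07 (0.75). All 3 values were negative, and the groups overlapped only in VPS36, at 7.71 and 7.85 against 7.66 and 7.77.

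ESCRT-III holds the filament subunits, and 2 of its 8 measured genes fell while 0 rose. That is 25% lower, beside 9.64% of genes at or above the median signal. CHMP4B, the main filament-forming subunit, was at 9.16 and 9.17 in untreated cells and at 8.56 and 8.68 in exposed cells. Its fall of 0.54 (SE 0.05, 95% interval -0.69 to -0.40) is a 1.46-fold lower signal, just short of the fold limit, with a limma adjusted p of 0.0115. The untreated arrays lay 0.01 apart and the exposed arrays were both far below them, but the adjusted p was 0.0566 without array A and 0.0599 without array B. CHMP4B was also called lower, past the fold limit, after median centring of the arrays and without array D.

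CHMP1A, a late-acting subunit that can bind VPS4, was at 8.48 and 8.44 against 8.20 and 8.21 in exposed cells. The groups did not overlap, and it fell by 0.26 (95% interval -0.36 to -0.15, limma adjusted p = 0.0277), a call lost with any 1 array left out (adjusted p = 0.0766 to 0.145). CHMP2B changed by -0.27 (0.111), CHMP7 by -0.15 (0.134), CHMP5 by -0.04 (0.843), CHMP6 by -0.01 (0.985) and CHMP2A by 0 (0.998), each with its limma adjusted p in parentheses. CHMP1B was the only ESCRT-III gene with a positive change, 0.17 (limma adjusted p = 0.217), and the gene GNAL overlaps it in RefSeq. Over ESCRT-III the median change was -0.09.

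VPS4A and VPS4B, the paired ATPases that recycle ESCRT-III, had changes of opposite sign, -0.13 (95% interval -0.24 to -0.02) and 0.16 (0.04 to 0.29). Neither passed the test, with limma adjusted p of 0.152 and 0.128, although the groups of both genes did not overlap. VPS4A shares its locus with COG8 and PDF in RefSeq. From ESCRT-0 to VPS4, 21 of 22 genes were measured, of which 2 rose and 3 fell, and the median change was -0.07 beside 0 over all genes. The shares were 9.52% higher and 14.3% lower, beside 7.66% and 9.64% of genes at or above the median signal. Of the 21, 14 changes were negative (66.7%, beside 49.6% of genes at or above the median signal) and 7 positive, 10 genes had both exposed arrays below both untreated arrays and 5 had both above. Over all genes at or above the median signal, 31.8% had both exposed arrays below and 27.6% had both above.

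**Figure D2:**
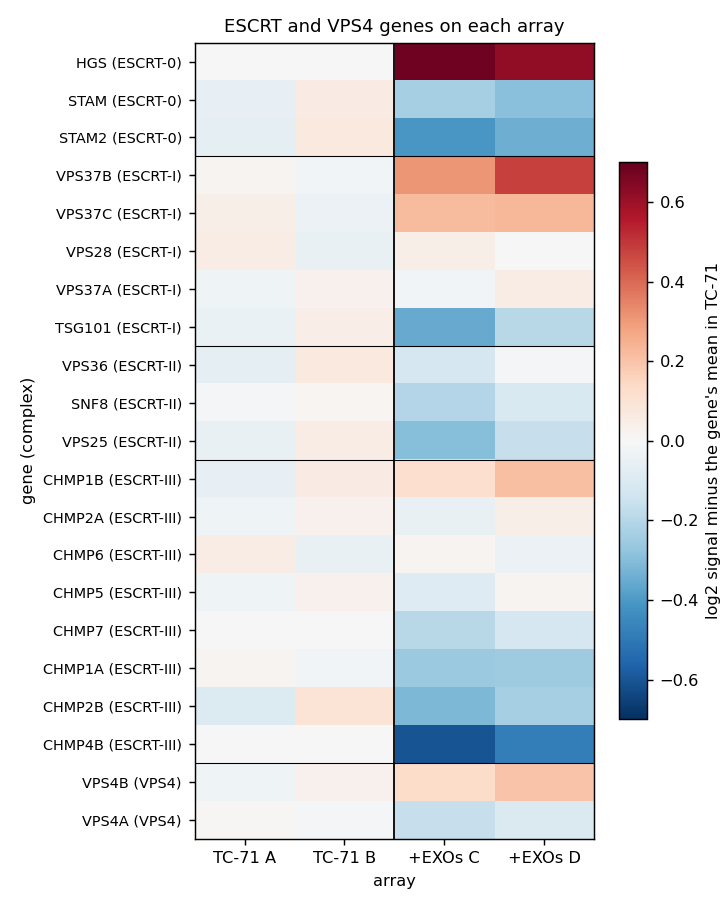
Log2 signal of the 21 measured ESCRT and VPS4 genes (rows, by complex) on each of the 4 arrays (columns), as the difference from the mean of the gene in untreated TC-71 (colour scale, red higher, blue lower). HGS is the deepest red on arrays C and D, with STAM and STAM2 blue beneath it, and CHMP4B is the deepest blue.

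Of the 16 tetraspanins, all measured, 2 rose, 0 fell and 14 did not pass the test, and their median change was 0.01, from -0.23 to 0.31. The shares were 12.5% higher and 0% lower, beside 7.66% and 9.64% of genes at or above the median signal. TSPAN3, a broadly expressed member, was at 9.03 and 9.08 in untreated cells and at 9.37 and 9.36 in exposed cells. It rose by 0.31 (95% interval 0.20 to 0.42, limma adjusted p = 0.0197), more than the distance between replicates in either group. TSPAN14, a regulator of the metalloprotease ADAM10, was at 8.17 and 8.21 against 8.45 and 8.40. It rose by 0.23 (95% interval 0.12 to 0.34, limma adjusted p = 0.0406). Both rises were lost with any 1 array left out, at adjusted p of 0.0583 to 0.101 for TSPAN3 and 0.104 to 0.21 for TSPAN14.

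CD9, CD63 and CD81, the tetraspanins used to mark exosomes, did not pass the test. CD63 was at 9.04 and 8.97 against 8.92 and 8.94 in exposed cells, a change of -0.07 (95% interval -0.19 to 0.04, limma adjusted p = 0.468). CD9 was at 5.61 and 5.57 against 5.63 and 5.62, a change of 0.04 (95% interval -0.07 to 0.14, limma adjusted p = 0.757), and its signal lies only just above the array median. CD81 was at 8.23 and 8.26 against 8.41 and 8.37, a change of 0.15 (95% interval 0.04 to 0.26, limma adjusted p = 0.109). The groups of all 3 genes did not overlap, but those of CD63 and CD9 lay about as close to each other as the replicates did, and each of the 3 intervals stays within a fold of 1.5.

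CD82, which restrains cell migration, had the largest change of a tetraspanin that missed the threshold, 0.28 (95% interval 0.12 to 0.45, limma adjusted p = 0.0685), at 6.76 and 6.65 against 7.04 and 6.93. CD151, a partner of laminin-binding integrins, changed by 0.09 (95% interval -0.03 to 0.22, limma adjusted p = 0.386). TSPAN13 was at 11.05 and 11.18 against 10.90 and 10.88, and changed by -0.23 (limma adjusted p = 0.0856). TSPAN18 changed by 0.16 (0.0669), TSPAN4 by 0.02, TSPAN15 by 0, TSPAN5 by -0.12 and TSPAN6 by -0.14, with adjusted p of 0.281 or more for the last 4. On average TSPAN7, TSPAN8 and TSPAN12 lay below the array median, where a change is hard to measure, and changed by -0.14, 0 and -0.03.

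Outside the ESCRT complexes and the tetraspanins, 1 of 8 genes passed the test. Of genes at or above the median signal, 7.66% were higher and 9.64% lower past the adjusted p. FLOT1, which with FLOT2 forms membrane scaffolds, was at 8.56 and 8.61 in untreated cells and at 8.36 and 8.31 in exposed cells, and fell by 0.25 (95% interval -0.37 to -0.14, limma adjusted p = 0.0345). FLOT1 has 8 clusters on the array, most of them named for alternative haplotypes of chromosome 6, and this is the brightest. Only 6 of the 8 hold distinct values, so they are not 8 separate measurements. All 8 changed by -0.25 to -0.15, but only the brightest passed, with limma adjusted p of 0.0345 to 0.116. The mean of the 8 changed by -0.18 (limma adjusted p = 0.0666). The call was also lost with any 1 array left out (adjusted p = 0.0819 to 0.158). FLOT2 changed by 0.02 (95% interval -0.09 to 0.13, limma adjusted p = 0.9).

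ALIX (PDCD6IP), which bridges syntenin to ESCRT-III, changed by 0.16 (95% interval -0.02 to 0.34, limma adjusted p = 0.293), and syntenin (SDCBP), the adaptor of syndecans, by -0.05 (95% interval -0.20 to 0.10, limma adjusted p = 0.758). Of the neutral sphingomyelinases, which make ceramide, SMPD3 changed by 0.06 (95% interval -0.10 to 0.23, limma adjusted p = 0.714) and SMPD2 by -0.15 (limma adjusted p = 0.0894). The membrane-binding annexins ANXA2 and ANXA5 changed by 0.11 (0.279) and -0.08 (0.499). None of these 6 genes passed the test, and each interval stayed within a fold of 1.5 in either direction.

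**Figure D3:**
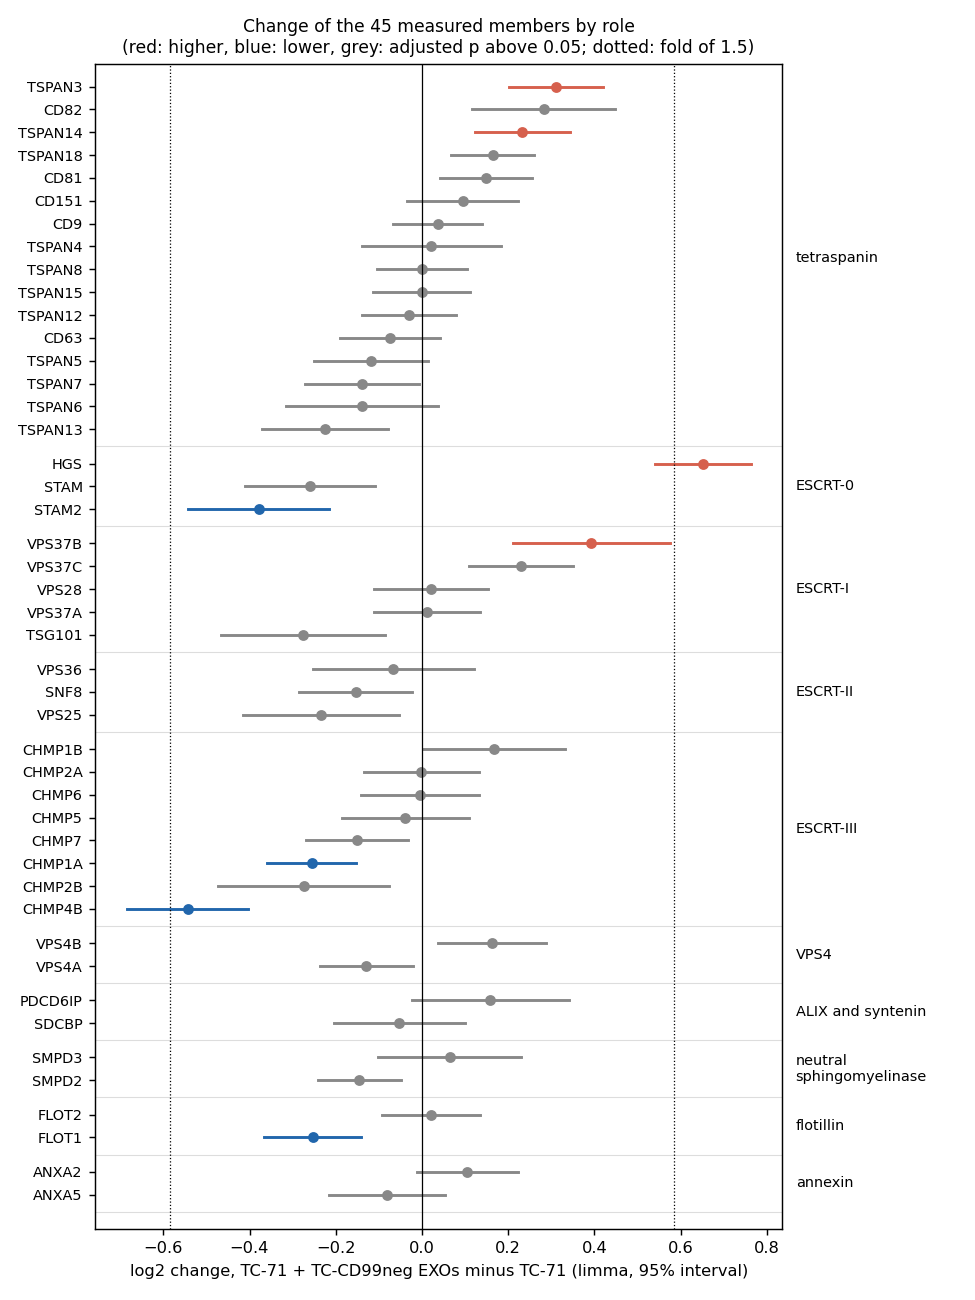
Log2 change of each of the 45 measured genes, exposed minus untreated cells (horizontal axis), with the 95% interval from limma, grouped by role; red and blue mark genes higher and lower at an adjusted p of at most 0.05, and dotted lines a fold of 1.5. HGS alone lies beyond the dotted lines, and of the other genes the interval crosses a dotted line only in CHMP4B.

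Over the 45 genes the median change was -0.01, with 19 positive and 26 negative values (57.8% negative, beside 49.6% of genes at or above the median signal). The median size of change was 0.15, beside 0.1 over genes at or above the median signal, and 28 of 45 genes (62.2%) changed by more than the distance between the replicates of either group, which had a median of 0.06 in both; the same was true of 50.3% of those brighter genes. Both exposed arrays were above both untreated arrays in 14 genes (31.1%) and below them in 18 (40%), and the groups overlapped in 13. Over all genes these shares were 25.9% and 26.6%, and over genes at or above the median signal 27.6% and 31.8%. The 95% interval lay within a fold of 1.5 in either direction for 43 of 45 genes, all but HGS and CHMP4B. With 2 arrays against 2, an exact permutation test of 1 gene cannot go below p = 0.33 (two-sided), so the calls lean on a variance estimate pooled over clusters, and 0 genes passed when that pooling was left out. The split of 4 higher and 4 lower genes also moved with the scale between arrays: median centring gave 2 and 4, centring on reference genes 3 and 8, and cyclic loess 6 and 4. The 12 measured reference genes were not all steady. Past the adjusted p in limma, 2 rose (TFRC by 0.41 and GUSB by 0.21) and 1 fell (TBP, -0.21), so that centring is not a neutral scale. The shares were 16.7% and 8.33%, beside 7.66% and 9.64% of genes at or above the median signal.

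Other genes of vesicle formation, release and uptake were taken from lists of 94 genes, of which 93 were found (PDCD6 was not). Of these 4 rose, 12 fell and 77 did not pass the adjusted p at any fold; 1 gene was called, as lower. This is 4.3% higher and 12.9% lower, beside 5.84% and 6.98% of all genes and 7.66% and 9.64% of genes at or above the median signal. With each array left out in turn, CEP55 and TSPAN31 passed every time (limma adjusted p = 0.0176 to 0.0497 and 0.0283 to 0.0425). MVB12B was lost without B or C, UEVLD without C or D, and ADAM10, CLTC and ANXA1 without B, C or D, with adjusted p of up to 0.146, and the 9 others were lost without any 1 array (up to 0.184). The called gene was CEP55, which brings ALIX and ESCRT to the midbody at the end of cell division. It was at 8.05 and 8.12 in untreated cells and at 7.26 and 7.40 in exposed cells. It fell by 0.75 (SE 0.06, 95% interval -0.93 to -0.58, limma adjusted p = 0.00894). Among 24 other ESCRT and ESCRT-associated genes, 1 rose and 3 fell (4.17% and 12.5%), and those named here besides CEP55 were chosen after their values were seen. MVB12B, an ESCRT-I subunit listed on the platform as FAM125B, rose by 0.44 (limma adjusted p = 0.01), from 6.51 and 6.51 to 6.97 and 6.92. UEVLD, a relative of TSG101, fell by 0.52 (limma adjusted p = 0.0219), and VTA1, the cofactor of VPS4, by 0.33 (0.0351).

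Of 17 other tetraspanins, 2 fell and 0 rose, and 5 lay below the array median. The 2 are 11.8%, beside 6.98% lower of all genes and 9.64% of genes at or above the median signal. Of the 17 changes 12 were positive and 5 negative (29.4% negative, beside 49.6% of genes at or above the median signal). TSPAN31 was at 7.40 and 7.47 against 6.85 and 6.90, a fall of 0.56 (95% interval -0.68 to -0.44, limma adjusted p = 0.00809). TSPAN33, which like TSPAN14 belongs to the tetraspanins that steer ADAM10, fell by 0.30 (limma adjusted p = 0.02). ADAM10, the sheddase itself, was at 7.79 and 7.92 against 7.44 and 7.49 and fell by 0.39 (95% interval -0.54 to -0.24, limma adjusted p = 0.0245), while IGSF8, a direct partner of CD9 and CD81, rose by 0.28 (limma adjusted p = 0.0356). TSPAN5, TSPAN10, TSPAN15 and TSPAN17, of the same subgroup, changed by -0.12, -0.07, 0 and 0.06, and none of them passed the test.

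Vesicle docking and release, the steps that bring multivesicular bodies to the plasma membrane, were read from 14 genes, of which 2 fell and 0 rose. These were the small GTPases RALA and RALB, which fell by 0.29 and 0.27 (limma adjusted p = 0.0379 and 0.0401). VAMP7, a SNARE protein of late endosomes with the largest change of the list, was at 7.72 and 7.86 against 7.51 and 7.48, a change of -0.29 (95% interval -0.45 to -0.14, limma adjusted p = 0.051). RAB27A and RAB27B, the GTPases that dock multivesicular bodies, changed by -0.09 and -0.10 (limma adjusted p = 0.314 and 0.432). The 2 that fell are 14.3% of the list, beside 9.64% of genes at or above the median signal. The median over the list was -0.12, beside 0 over those genes, and 11 of 14 changes were negative (78.6%), beside 49.6%. Some of the negative ones lie only just above the array median. RAB27A, RAB27B, SYTL4 and EXPH5 averaged 5.76, 5.66, 5.57 and 5.55 in untreated cells.

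None of 12 syndecan, syntenin-partner and lipid genes passed the test in limma, with 4 at an unadjusted p of at most 0.05. Of these, 2 were higher and 2 lower (16.7% each), beside 16.7% and 21.1% of genes at or above the median signal. SDC3, a syndecan, had the largest change of the list, 0.31 (95% interval 0.12 to 0.49, limma adjusted p = 0.0716), at 7.22 and 7.14 against 7.57 and 7.41. Among 13 genes of endocytic uptake, 2 rose and 2 fell (15.4% each, beside 7.66% higher and 9.64% lower of genes at or above the median signal). The clathrin heavy chain gene CLTC was at 10.47 and 10.68 against 10.14 and 10.16 and fell by 0.42 (95% interval -0.63 to -0.22, limma adjusted p = 0.0421). Of the AP-2 adaptor, which links clathrin to cargo, AP2A2 fell by 0.31 and AP2M1 rose by 0.34 (limma adjusted p = 0.0256 and 0.0151), and caveolin gene CAV1 rose by 0.32 (0.0309). Of 9 other annexins, 2 fell (22.2%, beside 6.98% of all genes and 9.64% of genes at or above the median signal). ANXA1 fell by 0.43, from 9.31 and 9.45 to 8.95 and 8.94 (limma adjusted p = 0.0213), and ANXA4 by 0.35 (0.0199).

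**Figure D4:**
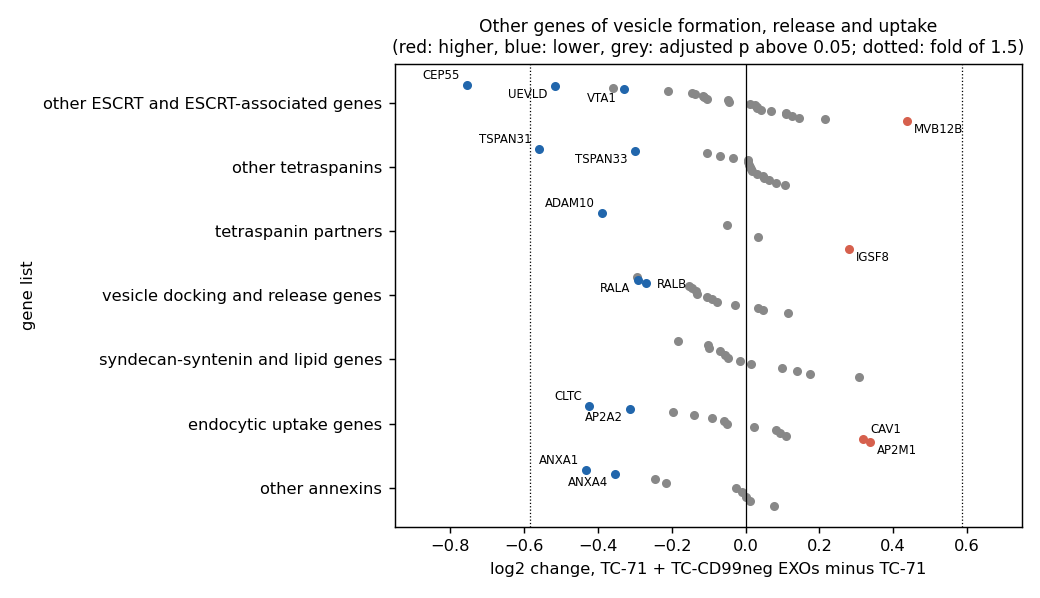
Log2 change of the 93 measured genes of the wider lists, exposed minus untreated cells (horizontal axis), by list (vertical axis, points spread for legibility); red and blue mark genes higher and lower at an adjusted p of at most 0.05, and dotted lines a fold of 1.5. CEP55 alone lies beyond the dotted lines, and 12 points are blue and 4 red (12.9% and 4.3%, beside 9.64% and 7.66% of genes at or above the median signal).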

How the data were processed

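RNA of 2 untreated and 2 EXO-exposed TC-71 cultures, which the submitters call biological replicates, was measured with Human Transcriptome Array 2.0 arrays. Nothing else is stated of the cultures, so p-values measure the spread between these samples. The log2 values deposited by the authors had been summarized with ExonRMA16 in GeneSpring and quantile normalized with no baseline step, and cover 67539 transcript clusters; they were used unchanged. Clusters were named from the platform annotation, in which 23383 have 1 symbol, 1225 several and 42931 none. The genome build of that annotation is not given in the sources used here, and the printed coordinates are those of the RefSeq promoters (GRCh38.p14).

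The test was limma 3.58.1 (lmFit and eBayes, with 2 residual and 2.59 prior degrees of freedom) in R 4.3.3. It was two-sided, over all clusters, with Benjamini-Hochberg adjustment. The study's methods give a moderated t-test with the same adjustment, run in GeneSpring, and do not name limma. A gene is its brightest cluster with 1 symbol, so probes of overlapping genes or paralogs may contribute. No filter on low signals was used, and arrays have no read depth, so their number limits the precision. The code was first tested on simulated data. All genes of the 45 past an adjusted p of 0.05 are given by array. From the wider lists, every called gene and the largest change of each list were to be given. The other genes named from the wider lists were added after their values were seen. The genes and lists were chosen with earlier results of these data known, and no test was run over a list. Counts over the 45 genes, the wider lists together and most single lists are set beside shares over all or brighter genes. Some of the smallest groups are given as counts only. Alternatives were the variance model, the scale between arrays (median centring, reference genes, quantile normalization once more, cyclic loess), dim clusters (33769) left out, other thresholds, identical rows counted once, 1 row a gene, the mean of a gene's rows, and each array left out.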

Additional observations from a re-analysis of the deposited data

How the results depend on the processing

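No paired analysis was possible because the replicate letters (A and B, C and D) are not shared between the groups. None of the changes of the 8 genes past the test reversed its sign under the 16 alternatives, but many of these could not alter a change. The variance models, other thresholds, clusters left out and 1 row a gene leave it as it is, and the mean of a gene's rows alters FLOT1 alone. Only the scale between arrays and leaving out an array could alter the changes of all 8. For the wider lists the signs of single genes were not followed. HGS was called in 15 of 16 alternatives, with changes of 0.61 to 0.69. Some of these could not end its call: a fold of 1.2, an adjusted p of 0.01 (the limma value was 0.00584), and the mean of rows, since HGS has 1 row. Without moderation of the variance 0 genes passed in either direction, of the 45 and of the wider lists alike. At a fold of 1.2, 3 genes were called higher (HGS, TSPAN3 and VPS37B) and 2 lower (CHMP4B and STAM2), and after median centring 1 was called lower (CHMP4B). At any fold, median centring gave 2 higher genes, 1 row a gene 7, and an adjusted p of 0.01 left 1 higher and 0 lower. Centring on reference genes gave 8 lower genes and leaving out dim clusters 7. At an adjusted p of 0.01 the wider lists held 0 higher and 2 lower genes. With 1 array left out, 0 to 1 of the 45 genes were called lower, 1 to 2 were higher and 0 to 1 lower at any fold, and the wider lists held 0 to 1 higher and 2 to 6 lower. The median change of the 45 genes was -0.05 after median centring and -0.05 to -0.01 with 1 array left out. The cause of these shifts was not tested. Array signal, not depth, limits the genes below the array median (TSPAN7, TSPAN8 and TSPAN12), for which no detection call was used.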
